A study of Mus musculus with 12 samples.

Results

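The genes described here are 6 members of the epidermal growth factor (EGF) receptor system, measured by RNA sequencing in mouse hearts 9 h after pressure overload. They are the ligand genes Hbegf and Nrg1, the receptor genes Egfr, Erbb2 and Erbb4, and Errfi1, which encodes an inhibitor of the receptors. They were chosen by name, as receptors, ligands and feedback inhibitor, with earlier results of these data known. Each has 1 row among the 13552 genes of the table. Pressure overload was produced by transverse aortic constriction (TAC), a surgical narrowing of the aorta, and sham-operated mice had the surgery without the narrowing. The 12 male mice were young adults of the C57BL/6 strain (C57BL/6J in the study's methods), 3 in each of 4 groups: wild type (WT) sham, WT TAC, knock-in (KI) sham and KI TAC. KI mice were homozygous, by the study's text, for the S14A change of Bcl-xL, an anti-apoptotic Bcl-2 family protein, in which serine 14 is replaced by alanine and so cannot be phosphorylated. The change was made in the germ line, so it was present in all cells and throughout development, the selection cassette had been removed with CMV-Cre, and the control WT mice were bought from a supplier, with no statement that they were littermates. All groups were otherwise untreated, and each value is from the RNA of the heart of 1 mouse.

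The receptors of this family are tyrosine kinases that pair when a ligand binds, phosphorylate each other and pass the signal on through adaptors to the Ras-ERK and PI3K-Akt pathways. ErbB2 has no ligand of its own and acts as partner of the other receptors. In the heart, neuregulin 1 made by endothelial cells acts on ErbB4 and ErbB2 of cardiomyocytes, and loss of ErbB2 in cardiomyocytes leads to dilated cardiomyopathy. HB-EGF, the product of Hbegf, is made as a membrane protein, is released by metalloproteinases of the ADAM family in response to agonists of Gq-coupled receptors, and binds EGFR and ErbB4. Errfi1 (also called Mig-6) is induced by growth factor signalling and binds the kinase domain of the receptors, which it inhibits and sends to degradation.

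The values are RPKM (read number divided by exon length and by library size), from libraries of 23650195 to 32455177 reads on genes. The depth in KI TAC hearts (30298174 to 31676892 reads) was above that in WT TAC hearts (25715287 to 29608547 reads), without overlap. Differences were tested with limma on log2(RPKM + 1) over 11240 genes (those with 3 or more mice at 1 RPKM or higher), with Benjamini-Hochberg adjustment over all of them, and a gene was called at an adjusted p under 0.05. Of the 6 members, 5 passed this filter. Nrg1 did not, and its values come from a fit with no filter. Egfr passed only through the 3 WT TAC hearts and 1 KI sham heart, so its place among the genes tested depended on the groups in which it was high. Bcl2l1, the gene of Bcl-xL, was at 12.2 ± 4.52 RPKM (SD, n = 3) in WT sham, 10.4 ± 5.88 in WT TAC, 13.9 ± 6.47 in KI sham and 32.4 ± 6.89 in KI TAC hearts, and a change of 1 codon cannot be seen in values per gene. Since RNA came from the heart as a whole, fewer cells of a type and less RNA per cell cannot be told apart.

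Cardiomyocyte transcripts dominated all hearts: the summed level of 7 cardiomyocyte markers (Myh6, Tnnt2, Tnni3, Actc1, Ryr2, Actn2 and Mybpc3) was 14652 to 19293 RPKM in WT sham and 12543 to 23622 RPKM in WT TAC hearts. It was 15720 to 18111 RPKM in KI sham and 14721 to 20871 RPKM in KI TAC hearts, so the groups overlapped. Of these 7 genes, Myh6 was called as lower after TAC in WT hearts (-1.15 ± 0.26 on the log2 scale, adjusted p = 0.0129, limma) and Tnni3 as higher in KI than in WT after TAC (0.95 ± 0.27, adjusted p = 0.0384). With quantile normalization none of the 7 was called as higher in KI between the TAC groups, and their median difference turned from 0.31 to -0.11, while with median-ratio scaling 2 were called as higher and the median was 0.51. The summed level of immune cell markers moved with surgery. Summed over the 7 of 9 listed genes that could be read, it was 26.4 to 33.2 RPKM in WT sham, 53.2 to 68.3 in WT TAC, 28.1 to 32.7 in KI sham and 41.1 to 61.9 in KI TAC hearts, and S100a8 and S100a9 were each at 0 in a sham heart. In KI hearts S100a8, S100a9 and Cd14 rose after TAC and Csf1r fell by 0.53 (adjusted p = 0.0419, limma), but with quantile normalization or median-ratio scaling 4 of the 6 genes tested rose and 0 fell. Between the TAC groups Adgre1 (-1.15, adjusted p = 0.0135) and Csf1r (-0.91, adjusted p = 0.00913) were lower in KI. The sum of 6 fibroblast markers was 113 to 171 RPKM in WT sham, 134 to 610 in WT TAC, 135 to 221 in KI sham and 92.2 to 168 in KI TAC hearts. The sum of 8 endothelial markers lay between 265 and 372 RPKM in all 12 hearts. That of 6 smooth muscle and pericyte markers was 164 to 193 RPKM in WT sham, 203 to 283 in WT TAC, 154 to 226 in KI sham and 164 to 234 in KI TAC hearts. Mesothelial and Schwann cell markers were low, at most 4.99 and 3.76 RPKM in sum, and the atrial markers Myl4, Myl7, Sln and Bmp10 were not analysed here. The part of these cell types in the changes below was not tested.

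In hearts of sham-operated WT mice, the members covered a wide range of levels per length. Errfi1 stood highest at 8.77 ± 1.39 RPKM (mean ± SD, n = 3), followed by Erbb2 at 5.51 ± 0.869 and Hbegf at 4.10 ± 0.393. Erbb4 was at 0.977 ± 0.431 and Egfr at 0.818 ± 0.222 RPKM, and Nrg1 came last at 0.112 ± 0.0308. Neighbours in this order did not overlap between mice except Erbb4 and Egfr. On a scale of percentiles of all genes in the table, these levels ranked at 71.2 for Errfi1, 60.8 for Erbb2, 53.5 for Hbegf, 21.8 for Erbb4, 18.7 for Egfr and 1.32 for Nrg1. KI sham hearts had the same order of means, although Errfi1 and Erbb2 then overlapped. After TAC the order changed in both genotypes, with Hbegf first, then Errfi1 and then Erbb2, and with Egfr above Erbb4 in every mouse.

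**Figure D1:**
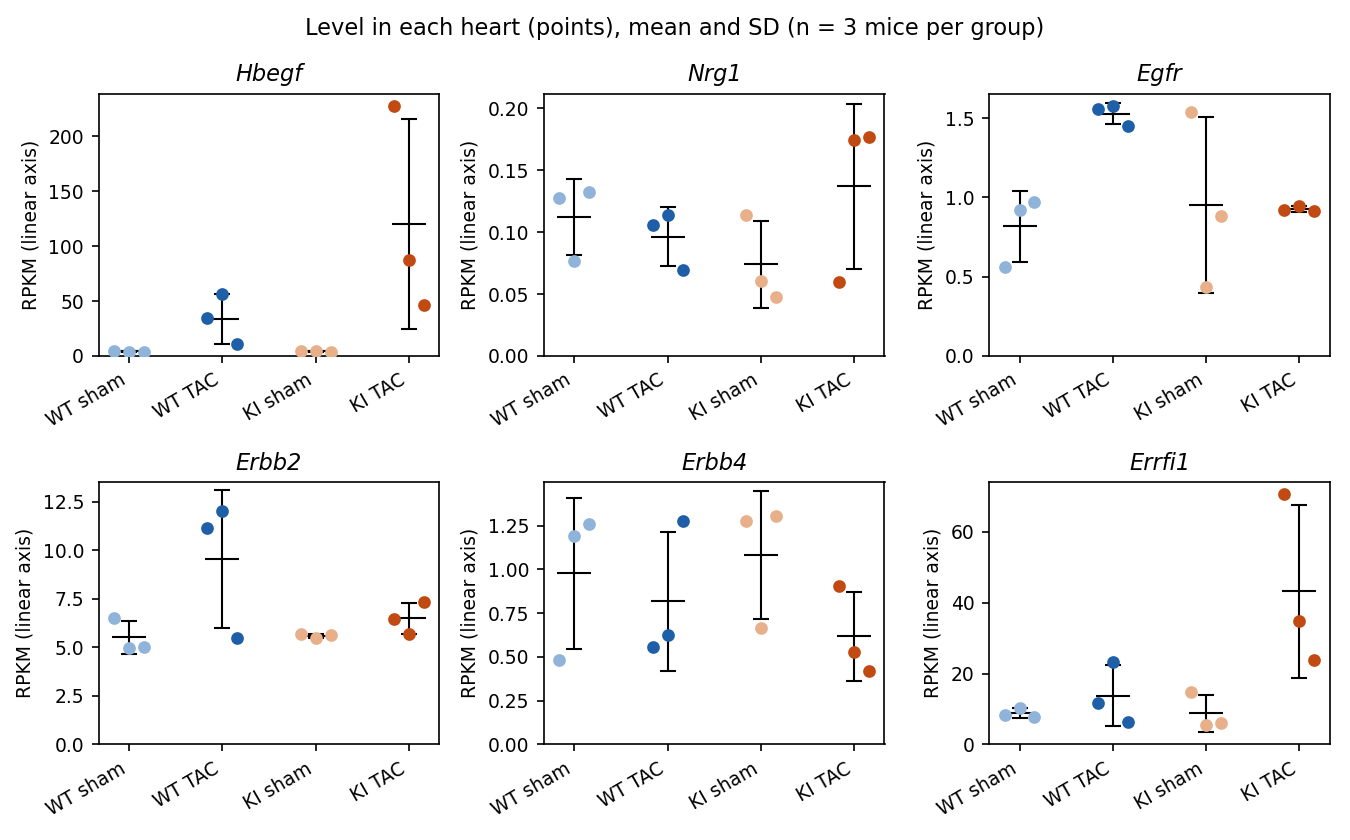
RPKM (linear axes, a scale of its own for each gene) of the 6 genes in each heart, by group. Points are mice, and the bars show the mean and SD (n = 3). Hbegf reached 10.7 to 56.5 RPKM in WT TAC and 46.0 to 228 RPKM in KI TAC hearts against at most 4.55 RPKM in sham hearts, and Errfi1 was highest in KI TAC hearts.

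Hbegf rose after TAC in both genotypes. The gene (ENSMUSG00000024486, GRCm38 chr18:36504927-36515805, minus strand, protein-coding) was at 4.52, 4.03 and 3.74 RPKM in the WT sham hearts 1, 2 and 3, and at 4.55, 4.49 and 3.71 RPKM in the KI sham hearts 1, 2 and 3. After TAC it was at 34.3, 56.5 and 10.7 RPKM in the WT hearts 7, 9 and 10, and at 228, 87.2 and 46.0 RPKM in the KI hearts 5, 6 and 7. Every TAC heart was above every sham heart of its genotype, and the TAC hearts were also far more spread than the sham hearts. These levels rest on 442 to 702 reads in the sham hearts and on 1349 to 33365 reads in the TAC hearts.

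The mean of Hbegf was 8.25 times that of sham hearts in WT and 28.3 times in KI. The KI TAC mean of 120 RPKM leaned on mouse 5 (228 RPKM), and the median of that group was 87.2 RPKM. In WT TAC hearts the mean was 33.8 and the median 34.3 RPKM. On the log2(RPKM + 1) scale, which understates the change of low genes, the difference was 2.50 ± 0.53 (SE) in WT (adjusted p = 0.00930, limma) and 4.23 ± 0.53 in KI (adjusted p = 0.000186, limma). Of the 5 members tested, Hbegf was the 1 called in WT hearts, where 11.6% of all genes tested were called in either direction and 6.96% were called as higher. In KI hearts 2 of the 5 were called, Hbegf and Errfi1, against 23.3% of all genes in either direction and 8.57% as higher. The 2 comparisons share no mice, only the estimate of the spread. Averaged over both genotypes, the change was 3.36 ± 0.38 (adjusted p = 3.50e-05, limma), and the exact permutation test of mice within genotypes gave the smallest two-sided p it can give, 0.005. In this averaged comparison 31.1% of all genes were called, 14.1% as higher.

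Between the TAC groups, Hbegf was higher in KI than in WT hearts by a difference of 1.77 ± 0.53 on the log2 scale (95% interval 0.63 to 2.92, adjusted p = 0.0479, limma), and its mean RPKM was 3.56 times that of WT. The SE and interval rest on a spread shared by all 4 groups. The SD of Hbegf was 9.59% and 11.1% of the mean RPKM in WT and KI sham hearts, but 67.8% and 79.2% in WT and KI TAC hearts. The SE and interval thus understate the spread of the TAC hearts, and the call was lost in a fit of the TAC groups alone. The groups overlapped, since KI mouse 7 (46.0 RPKM) was below WT mouse 9 (56.5 RPKM), and the exact two-sided permutation test gave p = 0.2. With 3 mice against 3 this test cannot go below 0.1. The adjusted p lay just under the threshold and was over it in 14 of 18 alternative fits, among them every fit without 1 mouse except those without WT TAC mouse 9 or KI TAC mouse 7. The difference was 1.13 without WT TAC mouse 10 (adjusted p = 0.146) and 1.16 without KI TAC mouse 5 (adjusted p = 0.149), and 0.0538 to 0.122 was the range of the adjusted p in the other such fits over the threshold.

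Errfi1 rose after TAC in KI hearts and was not called in WT hearts. The gene (ENSMUSG00000028967, GRCm38 chr4:150853919-150868892, plus strand, protein-coding) was at 8.27, 10.3 and 7.70 RPKM in the WT sham hearts 1, 2 and 3, and at 14.8, 5.47 and 6.12 RPKM in the KI sham hearts 1, 2 and 3. After TAC it was at 11.7, 23.2 and 6.32 RPKM in the WT hearts 7, 9 and 10, and at 70.7, 34.9 and 24.0 RPKM in the KI hearts 5, 6 and 7. All KI TAC hearts were above all KI sham hearts, whereas WT TAC hearts overlapped WT sham hearts on both sides, with mouse 10 below all of them. Reads on the gene ranged from 591 to 7675 per heart.

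The sequence upstream of Errfi1 is shown because this gene was called in KI hearts and between the TAC groups, and because RefSeq gives it 2 start sites. The windows of 250 bases before each start site come from RefSeq (build GRCm38.p6, plus strand), and capitals mark matches to the motifs searched. The first, chr4:150853546-150853795, lies before the start site at 150853796, has 38% G and C and holds none of the motifs. The other, chr4:150854820-150855069, lies before the start site at 150855070 and has 64.8% G and C, against a median of 52.4% over all 32851 promoter windows.
Errfi1 upstream start site: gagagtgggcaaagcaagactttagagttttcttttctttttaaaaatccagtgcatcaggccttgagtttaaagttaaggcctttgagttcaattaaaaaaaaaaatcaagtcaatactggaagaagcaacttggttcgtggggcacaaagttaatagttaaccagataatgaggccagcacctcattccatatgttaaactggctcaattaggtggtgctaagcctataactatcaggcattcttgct
Errfi1 downstream start site: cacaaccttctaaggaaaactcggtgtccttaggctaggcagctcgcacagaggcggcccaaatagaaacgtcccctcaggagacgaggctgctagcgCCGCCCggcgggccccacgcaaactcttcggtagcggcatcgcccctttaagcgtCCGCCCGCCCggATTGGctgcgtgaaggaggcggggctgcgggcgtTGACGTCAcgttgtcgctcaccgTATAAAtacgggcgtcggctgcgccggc
Reading 5′ to 3′, the capitals in the second window are a GC box (GGGCGG) read on the other strand 152 to 147 bases before the start site, and a pair of overlapping GC boxes on that strand at 97 to 92 and 93 to 88. A CCAAT box on that strand (85 to 81), the cAMP response element TGACGTCA (51 to 44) and the TATA box TATAAA (28 to 23) follow.

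Motifs were searched on both strands of all windows. The cAMP response element was found in 1.546% of the 32851 windows, the TATA box letters in 12.37%, the GC box in 32.74% and the CCAAT box in 33.85%. The AP-1 letters TGACTCA or TGAGTCA (in 4.463% of windows), the CArG box (1.467%) and the glucocorticoid response element (0.03653%) had no match in either Errfi1 window. Of the other members, Egfr held a GC box 9 to 4 bases before its start site, Erbb2 a CCAAT box at 41 to 37 bases, and Erbb4 none of these motifs. Hbegf and Nrg1 were not looked at in this search, so nothing can be said of their motifs. A match describes letters in the window and not a site in use.

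In WT hearts, the change of Errfi1 after TAC was 0.43 ± 0.45 on the log2 scale (95% interval -0.53 to 1.40, adjusted p = 0.559, limma). It rested on mouse 9, since it was -0.0075 without that mouse. In KI hearts the change was 2.15 ± 0.45 (adjusted p = 0.00404, limma), with a mean RPKM 4.91 times that of sham hearts, and it was called in all 18 alternative fits, at values from 1.73 to 2.56. The average over genotypes was 1.29 ± 0.32 (adjusted p = 0.00732, limma), and the exact permutation test within genotypes gave p = 0.03.

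Comparing the TAC groups, Errfi1 was also higher in KI, by 1.61 ± 0.45 on the log2 scale (95% interval 0.65 to 2.57, adjusted p = 0.0368, limma) and 3.14 times in mean RPKM. The groups did not overlap, but the lowest KI heart (24.0 RPKM) and the highest WT heart (23.2 RPKM) were close, and the exact permutation test was at its smallest p of 0.1. Hbegf and Errfi1 were thus 2 of 5 members called between the TAC groups, where 11% of all genes tested were called. Errfi1 was no longer called without WT TAC mouse 7 (1.59, adjusted p = 0.122) or 10 (1.19, 0.117), without KI TAC mouse 5 (1.19, 0.116) or 6 (1.69, 0.102), or in a fit of these 2 groups alone (adjusted p = 0.0920).

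**Figure D2:**
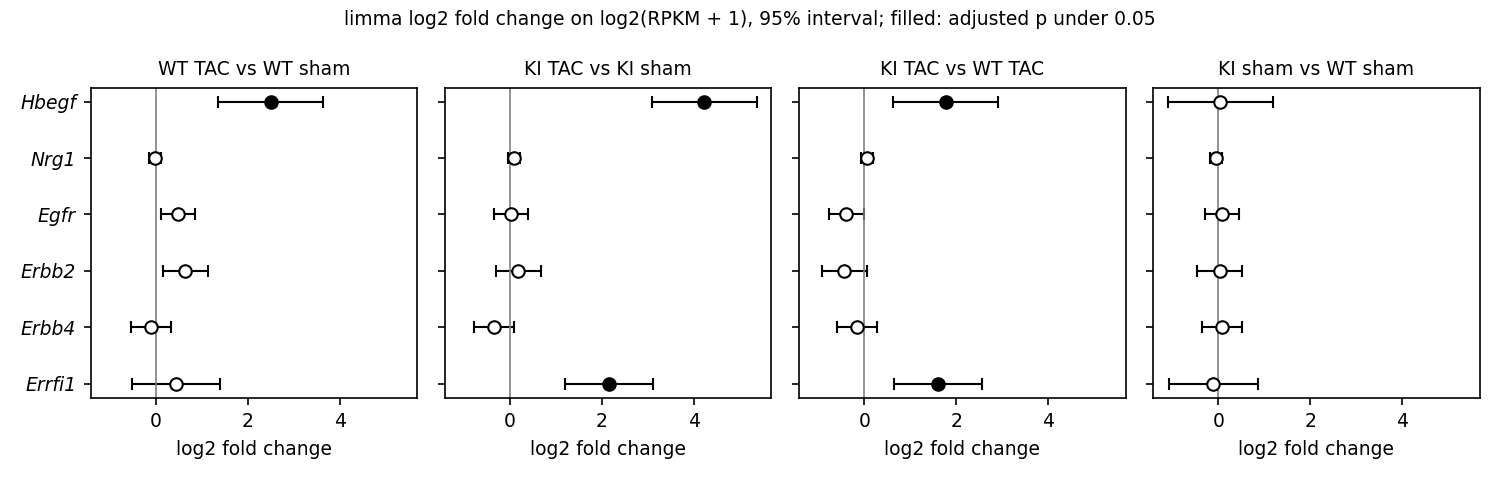
limma log2 fold changes on the log2(RPKM + 1) scale with 95% intervals for the 6 genes in 4 comparisons, where filled points have an adjusted p under 0.05 and Nrg1 is from the fit with no filter. Hbegf is filled in 3 panels and Errfi1 in 2, and no point is filled between the sham groups.

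The responses of the genotypes to TAC were also compared directly, as the interaction of genotype and surgery. No gene of the 11240 was called (0%, limma), while 1668 had an unadjusted p under 0.05, and limma-voom on reads recovered from the RPKM also called 0. The interaction was 1.73 ± 0.75 for Hbegf (95% interval 0.12 to 3.35, adjusted p = 0.309) and 1.72 ± 0.63 for Errfi1 (95% interval 0.36 to 3.08, adjusted p = 0.245), both towards a larger rise in KI. It was -0.46 ± 0.25 for Egfr, -0.46 ± 0.32 for Erbb2 and -0.24 ± 0.29 for Erbb4, with adjusted p of 0.389, 0.507 and 0.701. So the difference between the genotypes' responses did not pass the threshold for any member, Errfi1 included. The comparison of the TAC groups and the interaction share all 6 TAC hearts.

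Between sham hearts, none of the 5 members tested was called, and 0.0178% of all genes were. The differences of KI from WT sham hearts lay between -0.11 for Errfi1 (95% interval -1.07 to 0.85) and 0.084 for Erbb4 (-0.35 to 0.52). The interval for Hbegf was -1.10 to 1.18.

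Within each TAC group, Hbegf and Errfi1 ranked the mice in the same order. WT mouse 9 was highest and mouse 10 lowest for both genes, and KI mouse 5 was highest and mouse 7 lowest. Pearson's r of their log2(RPKM + 1) over the 12 mice was 0.894, a value in which the difference between groups and the shared library of each mouse are included. The ratio of Hbegf to Errfi1 RPKM was 0.474 in WT sham (range 0.38996 to 0.546) and 0.578 in KI sham hearts (0.307 to 0.821). It was 2.35 in WT TAC (1.69 to 2.92) and 2.55 in KI TAC hearts (1.92 to 3.22), so that the TAC groups overlapped in this ratio and lay above all sham hearts.

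**Figure D3:**
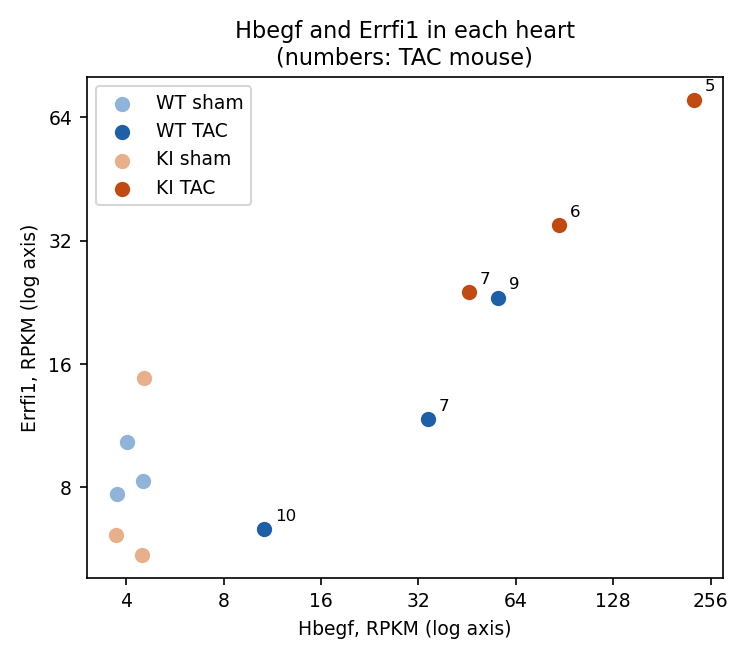
Hbegf RPKM (x, log axis) against Errfi1 RPKM (y, log axis), 1 point per heart, coloured by group, with mouse numbers at the TAC hearts. Sham hearts stand together at 3.71 to 4.55 RPKM of Hbegf, and the TAC hearts lie to their right, from WT mouse 10 at 10.7 RPKM of Hbegf and 6.32 RPKM of Errfi1, within the sham range of Errfi1, to KI mouse 5 at 228 and 70.7 RPKM.

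Of the receptors, Erbb2 and Egfr had their highest means in WT TAC hearts, without being called. Erbb2 (ENSMUSG00000062312, GRCm38 chr11:98412470-98437716, plus strand) was at 6.52, 4.98 and 5.04 RPKM in WT sham hearts 1, 2 and 3 and at 11.1, 12.03 and 5.47 RPKM in WT TAC hearts 7, 9 and 10. In KI it was at 5.69, 5.46 and 5.64 RPKM in sham hearts 1, 2 and 3 and at 6.44, 5.71 and 7.32 RPKM in TAC hearts 5, 6 and 7. WT TAC mice 7 and 9 stood above all other hearts, while WT TAC mouse 10 was within the range of WT sham hearts. The KI TAC hearts were above the KI sham hearts, the nearest pair being 5.71 and 5.69 RPKM.

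The change of Erbb2 after TAC was 0.64 ± 0.23 in WT hearts (adjusted p = 0.0859, limma) and 0.18 ± 0.23 in KI hearts (adjusted p = 0.603), and its difference between the TAC groups was -0.43 ± 0.23 (adjusted p = 0.216). WT TAC mouse 10 decided the values that contain WT TAC hearts. Without it, Erbb2 was called in WT hearts (0.96, adjusted p = 0.00350), between the TAC groups, as lower in KI (-0.75, adjusted p = 0.0222), and over both genotypes (0.57, adjusted p = 0.00221), all with limma. The exons of Erbb2 share 9 bases with Mien1 on the other strand.

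Egfr (ENSMUSG00000020122, GRCm38 chr11:16752203-16918158, plus strand) was at 0.563, 0.918 and 0.972 RPKM in WT sham hearts 1, 2 and 3 and at 1.56, 1.57 and 1.45 RPKM in WT TAC hearts 7, 9 and 10. In KI it was at 1.54, 0.436 and 0.884 RPKM in sham hearts 1, 2 and 3 and at 0.921, 0.948 and 0.913 RPKM in TAC hearts 5, 6 and 7. The 3 hearts of each TAC group were close together, and WT TAC hearts were above all WT sham and all KI TAC hearts, whereas KI sham hearts spread on both sides of KI TAC hearts. The change after TAC was 0.48 ± 0.17 in WT (adjusted p = 0.0883, limma) and 0.020 ± 0.17 in KI hearts (adjusted p = 0.947), and the difference between the TAC groups was -0.39 ± 0.17 (adjusted p = 0.149). With limma-voom on recovered reads these values were 0.96 ± 0.34 in WT (adjusted p = 0.0855), 0.16 ± 0.35 in KI (0.763) and -0.72 ± 0.33 between the TAC groups (0.159). In WT hearts the adjusted p was 0.0820 in the fit with no filter. It was 0.0361 and 0.0454 (limma) in fits without KI sham mouse 1 or 2, at the same change, as these mice enter only the estimate of the spread, and without KI sham mouse 1 it was 0.0190 over both genotypes (0.36). Since Egfr had entered the filtered fits through the WT TAC hearts, these last values are given as a description and not as calls. Egfr levels rested on 149 to 528 reads.

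Counted over members, 2 of the 5 tested (Hbegf and Egfr) had every WT TAC heart above every WT sham heart, which 20% of all genes tested did, although Egfr was among the genes tested because of its WT TAC hearts. In KI hearts it was 3 of 5 (Hbegf, Errfi1 and Erbb2), against 13.6% of all genes. The median change of the 5 members was 0.48 in WT and 0.18 in KI hearts, beside medians of 0.035 and -0.10 over all genes. The median in WT is the value of Egfr, which was tested because of its WT TAC hearts, so it is no support for a rise of the members. The median was -0.16 between the TAC groups, beside -0.12 over all genes.

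Erbb4, the receptor of neuregulins in cardiomyocytes (ENSMUSG00000062209, GRCm38 chr1:68032186-69108059, minus strand), was not called in any comparison. It was at 0.481 to 1.26 RPKM in WT sham, 0.557 to 1.27 in WT TAC, 0.662 to 1.31 in KI sham and 0.418 to 0.903 in KI TAC hearts, so all groups overlapped. The change after TAC was -0.12 ± 0.20 in WT (95% interval -0.55 to 0.32, adjusted p = 0.743, limma) and -0.36 ± 0.20 in KI hearts (-0.80 to 0.077, adjusted p = 0.217).

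Nrg1, the gene of neuregulin 1 (ENSMUSG00000062991, GRCm38 chr8:31814551-32884029, minus strand), was between 0.0479 and 0.177 RPKM in all hearts, or about 16 to 58 reads. The reads are approximate, because the annotated exon length of this gene did not give whole reads as those of the other 5 members did. In the fit with no filter, its change was -0.020 ± 0.061 in WT (adjusted p = 0.861, limma) and 0.081 ± 0.061 in KI hearts (adjusted p = 0.365), and the groups overlapped. On a scale of log2(RPKM + 1) such low values leave little room for change. With limma-voom on recovered reads the change was -0.22 ± 0.48 in WT (adjusted p = 0.807) and 0.85 ± 0.48 in KI hearts (adjusted p = 0.211), so at this depth even a change of that size could not be told from none. Exons of Nrg1 share 482 bases with Gm26578 on the other strand, and the strand setting of the counting is not given in the sources used here.

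The mix of receptor transcripts is described by the share of each in their summed RPKM, with Erbb3, the remaining receptor of the family, included. In WT sham hearts Erbb3 made up 46.6% ± 0.406 (SD, n = 3), Erbb2 40.2% ± 5.32, Erbb4 7.19% ± 3.27 and Egfr 6.01% ± 1.73. In KI sham hearts the means were 46.04% ± 1.08 for Erbb3 and 40.002% ± 5.14 for Erbb2. After TAC, Erbb2 had the largest mean share, 53.8% ± 13.3 in WT and 56.1% ± 5.93 in KI hearts, and Erbb3 had 32.2% ± 8.98 and 30.3% ± 10.1. The sum itself was 13.7 ± 0.405 RPKM in WT sham, 17.3 ± 2.76 in WT TAC, 14.2 ± 1.99 in KI sham and 11.7 ± 2.33 in KI TAC hearts.

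The genes most like each member over the 12 mice are given as a description, by Pearson's r of log2(RPKM + 1) among the genes tested. For Hbegf they were Hspb1, a small heat shock protein (r = 0.990), Nolc1, a nucleolar protein (0.990), and Flnc, the muscle filamin (0.989). Mean Hspb1 was 166 RPKM in WT sham, 793 in WT TAC, 180 in KI sham and 2892 in KI TAC hearts, and mean Flnc was 148, 833, 149 and 2117 RPKM in the same order. For Errfi1 they were Apold1 (0.968), Enc1 (0.956) and Csrnp1 (0.955), and Csrnp1 went from 12.1 RPKM in WT sham and 11.6 in KI sham to 22.5 in WT TAC and 89.3 in KI TAC hearts. For Erbb2 they were Rnf19b (0.955), Fam189a2 (0.951) and Tox3 (0.939), each with its highest mean in WT TAC hearts. For Egfr they were Bmpr2, a receptor of bone morphogenetic proteins (0.967), Cask (0.965) and Senp1 (0.951). For Erbb4 they were Hivep2 (0.921), Uhrf2 (0.902) and Tmem47 (0.896), and for Nrg1 Sprtn (0.839), Lbp (0.828) and Rasl11a (0.811). Mice of 1 group share surgery and genotype, so these values include the differences between groups.

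The remaining ligands and Erbb3 were looked at as a list of 10 genes, of which 4 could be tested (Egf, Ereg, Nrg2 and Erbb3). Tgfa, Btc and Nrg4 were under the filter, and Areg, Epgn and Nrg3 were not analysed here. Ereg encodes epiregulin, a ligand of EGFR and ErbB4. It was nearly absent from sham hearts, with 0, 1 and 0 reads in WT and 1 read in each of the 3 KI hearts, and had 51, 88 and 28 reads in WT TAC hearts 7, 9 and 10 and 217, 148 and 167 reads in KI TAC hearts 5, 6 and 7. Every TAC heart was above every sham heart, and every KI TAC heart was above every WT TAC heart. Ereg passed the filter only through its KI TAC hearts, so its tests in the filtered set are partly fixed by the filter, and the values below are from the fit with no filter.

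On the log2(RPKM + 1) scale, Ereg was higher after TAC in WT by 0.56 ± 0.11 (adjusted p = 0.00768, limma, no filter) and in KI hearts by 1.23 ± 0.11 (adjusted p = 2.99e-05), and between the TAC groups it was higher in KI by 0.68 ± 0.11 (adjusted p = 0.00625). The size depends on the scale: with limma-voom on recovered reads the values were 6.11, 6.76 and 1.58, of which the first 2 rest on sham hearts at 0 or 1 read and so on the prior count, and with a pseudocount of 0.1 they were 2.43, 3.75 and 1.40. With the filter, the call in WT was lost without WT sham mouse 2 (adjusted p = 0.0514) or 3 (0.0542), and without WT TAC mouse 7 (0.0548) or 9 (0.0514). It was also lost with quantile normalization (0.43, adjusted p = 0.0916), and the call between the TAC groups was lost in a fit of these groups alone (adjusted p = 0.0670).

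Nrg2, another neuregulin gene, was lower after TAC in KI hearts, with 1.54, 5.94 and 3.76 RPKM in sham hearts 1, 2 and 3 and 0.378, 0.381 and 0.536 RPKM in TAC hearts 5, 6 and 7. The groups did not overlap, and the change was -1.62 ± 0.33 (adjusted p = 0.00395, limma, and 0.00508 with no filter). In WT hearts it was at 4.84, 1.94 and 3.21 RPKM in sham and 1.64, 0.418 and 1.49 RPKM in TAC hearts. The WT groups did not overlap either, and the change of -0.98 ± 0.33 was not called (adjusted p = 0.0725, limma). Over both genotypes the change was -1.30 ± 0.24 (adjusted p = 0.00113).

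Erbb3 was called as lower after TAC in KI hearts (-0.76 ± 0.23, adjusted p = 0.0326, limma). Its KI sham hearts were at 7.25, 5.36 and 6.98 RPKM and its KI TAC hearts at 2.04, 3.24 and 5.75 RPKM, which overlap. The call was lost without KI sham mouse 1 (adjusted p = 0.0916) or 3 (0.106), without KI TAC mouse 5 (-0.48, 0.130) or 6 (0.0874), and in a fit of the KI groups alone (0.0639).

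Egf was called as lower after TAC in WT hearts (-0.53 ± 0.16, adjusted p = 0.0482, limma), from 1.39, 0.791 and 1.21 RPKM in sham to 0.414, 0.285 and 0.723 RPKM in TAC hearts, without overlap. It passed the filter only through 4 sham hearts, the groups in which it was high, and with no filter the adjusted p was 0.0383. The change of Egf in WT was -1.14 with a pseudocount of 0.1, where it was not called (adjusted p = 0.0530), and -1.34 with limma-voom (adjusted p = 0.0329). Over both genotypes the change was -0.47 ± 0.11 (adjusted p = 0.00735, and 0.00562 with no filter). In WT alone the call was lost in 10 of 18, among them the fit of the WT groups alone (adjusted p = 0.0684) and those without WT sham mouse 1 or 3, WT TAC mouse 7 or 9, KI sham mouse 1, 2 or 3, or KI TAC mouse 5 (adjusted p = 0.0510 to 0.157).

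**Figure D4:**
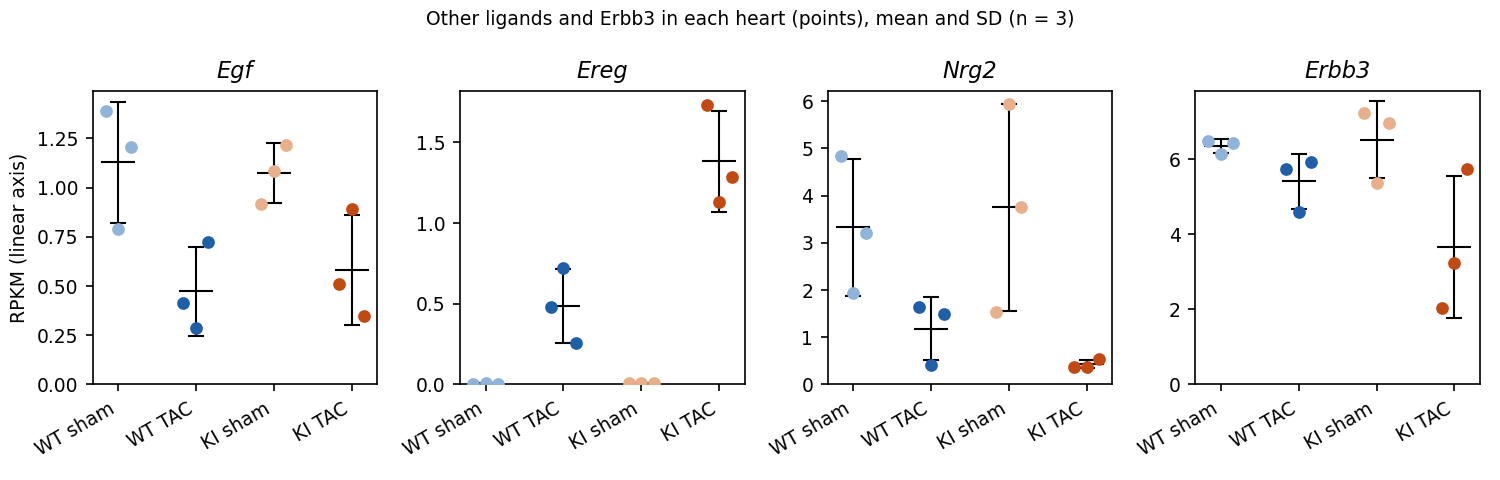
RPKM (linear axes, a scale of its own for each gene) of Egf, Ereg, Nrg2 and Erbb3 in each heart, by group, with mean and SD (n = 3). Ereg stands near 0 in all sham hearts and highest in KI TAC hearts, and Nrg2 has its lowest mean in KI TAC hearts, at 0.378 to 0.536 RPKM, a range that holds WT TAC mouse 9 (0.418 RPKM).

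Release of ligands from the membrane is described by a list of 14 genes for shedding and presentation, of which 13 were tested. In WT hearts 5 rose after TAC and none fell, against 6.96% of all genes tested called as higher and 4.6% as lower (median change 0.56, beside 0.035 over all genes). In KI hearts 5 rose and none fell, against 8.57% and 14.7% (median 0.39, beside -0.10). Adam8 and Cd44, which are among the 5 in both, passed the filter mainly through TAC hearts, so the counts are no support on their own. Cd44, a membrane proteoglycan that can hold HB-EGF with its protease, rose by 1.79 ± 0.28 in WT (adjusted p = 0.00142, limma) and by 1.77 ± 0.28 in KI hearts (adjusted p = 0.000712). Adam8, an ADAM protease that is also abundant in leukocytes, rose by 1.49 ± 0.14 (adjusted p = 5.70e-05) and 1.08 ± 0.14 (adjusted p = 0.000197), and the immune marker sum given above moved the same way. Adam8 was at most 0.346 RPKM in sham hearts and passed the filter only through TAC hearts, and Cd44 through TAC hearts and KI sham mouse 1. With no filter, the adjusted p was 4.90e-05 in WT and 0.000182 in KI hearts for Adam8, and 0.00200 and 0.000970 for Cd44. With limma-voom on recovered reads the changes of Adam8 were 3.21 in WT and 2.56 in KI hearts. Adam17, the best known sheddase of HB-EGF, was not called (0.24 ± 0.19 in WT, adjusted p = 0.435, and -0.33 ± 0.19 in KI, adjusted p = 0.221, limma). Adam12, the gene of the list under the filter, was not tested. It was at 0.0560 to 0.0813 RPKM in WT sham and 0.894 to 2.60 RPKM in WT TAC hearts. In KI it was at 0.0501 to 0.267 RPKM in sham and 0.370 to 0.606 RPKM in TAC hearts. Every TAC heart was thus above every sham heart of its genotype, and every WT TAC heart above every KI TAC heart.

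Between the TAC groups, 1 of the 13 genes was higher and 2 were lower in KI hearts, against 2.92% and 8.13% of all genes (median -0.33, beside -0.12 over all genes). With quantile normalization these counts stayed and the median was -0.24. With median-ratio scaling 2 were higher and 2 lower, with a median of -0.13. Timp3, an inhibitor of ADAM17, was higher by 1.33 ± 0.36 (adjusted p = 0.0334, limma) and had risen by 1.15 ± 0.36 in KI hearts (adjusted p = 0.0338). Adam19 was lower by -1.61 ± 0.30 (adjusted p = 0.00869) after a rise of 1.29 ± 0.30 in WT hearts (adjusted p = 0.0149), and Bace1 was lower by -1.15 ± 0.29 (adjusted p = 0.0256). Without 1 mouse, the calls of Timp3 and Bace1 were each lost in some fits, always including those without WT TAC mouse 7 (adjusted p = 0.144 and 0.0991 between the TAC groups) and without KI TAC mouse 5 (0.0934 and 0.0792) or 6 (0.0943 and 0.113). The call of Bace1 was also lost in a fit of the TAC groups alone (0.0803). For Timp3 they were also lost without WT TAC mouse 10 (0.0741) and, in KI hearts, without KI sham mouse 1 (0.133) or 2 (0.0653) or KI TAC mouse 5 (0.112) or 6 (0.0608). For Adam19 they were lost without WT TAC mouse 7 (0.0503 between the TAC groups, 0.0625 in WT) and in WT also without WT sham mouse 2 (0.0723).

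Of 23 adaptors and effectors of the receptors, all tested, 3 rose and none fell after TAC in WT hearts (median 0.21). Of all genes, 6.96% were called as higher and 4.6% as lower there. With quantile normalization 3 rose and 1 fell in WT, and with median-ratio scaling 2 rose and 1 fell. In KI hearts 2 rose and 4 fell (median -0.090), where 8.57% and 14.7% of all genes were, so the counts were near the background. With quantile normalization 4 rose and 4 fell in KI, and with median-ratio scaling between mice 6 rose and 4 fell, with a median of 0.040. The 4 that fell in KI were Stat5a (-1.41 ± 0.24, adjusted p = 0.00111, limma), Pik3r2, a regulatory subunit of PI3K (-1.36 ± 0.22, 0.000839), the docking protein Gab1, a partner of ErbB receptors in cardiomyocytes (-1.05 ± 0.18, 0.00111), and Stat5b (-0.97 ± 0.16, 0.00103). All 4 were called in KI hearts in every one of 18 alternative fits. Between the TAC groups 6 of the 23 were lower in KI and none was higher (median -0.24), against 8.13% and 2.92% of all genes, among them Pik3r2 (-0.94 ± 0.22, adjusted p = 0.0195), Vav2 (-0.79 ± 0.22, 0.0381), Gab1 (-0.67 ± 0.18, 0.0301) and Stat5b (-0.54 ± 0.16, 0.0470). With quantile normalization 2 of the 23 were lower, and with median-ratio scaling 1. These 4 calls were all lost in a fit of the TAC groups alone and in the fits without WT TAC mouse 7 (adjusted p = 0.101, 0.161, 0.151 and 0.166 in the order given), KI TAC mouse 5 (0.0593, 0.0847, 0.0737 and 0.111) or KI TAC mouse 6 (0.0931, 0.150, 0.122 and 0.124). Gab1 (0.0613) and Stat5b (0.119) were also not called without WT TAC mouse 10. Vav2 was not called without WT TAC mouse 9 (0.0641), WT sham mouse 3 (0.0542) or KI sham mouse 3 (0.0584), nor Stat5b without WT sham mouse 1 (0.0524), 2 (0.0683) or 3 (0.0698) or KI sham mouse 3 (0.0750).

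The 17 other inhibitors of the receptors and genes of their turnover, 15 of them tested, had 5 risen and none fallen in WT hearts (median 0.32), against 6.96% and 4.6% of all genes, and 3 risen with median-ratio scaling. In KI hearts 5 had risen and 2 fallen (median 0.12), against 8.57% and 14.7%. With quantile normalization or median-ratio scaling 5 had risen and 1 had fallen in KI. Ptpn12, a phosphatase acting on ErbB receptors and their adaptors, rose by 0.90 ± 0.20 in WT (adjusted p = 0.0122, limma) and by 1.36 ± 0.20 in KI hearts (adjusted p = 0.000514). Ptpn2, a phosphatase of EGFR, rose by 0.91 ± 0.16 (adjusted p = 0.00349) and 0.78 ± 0.16 (adjusted p = 0.00387). Cblb, a ubiquitin ligase for activated receptors, rose in KI hearts by 1.07 ± 0.24 (adjusted p = 0.00666). The 2 that fell in KI hearts were Lrig1, a membrane protein that promotes degradation of the receptors (-0.92 ± 0.20, adjusted p = 0.00572), and Sh3kbp1, an adaptor of Cbl (-0.88 ± 0.28, adjusted p = 0.0369).

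Lrig1 was also the 1 gene of this list called between the TAC groups, as lower in KI (-0.83 ± 0.20, adjusted p = 0.0232, limma; median of the list -0.14). That call was lost without WT TAC mouse 7 (adjusted p = 0.123), without KI TAC mouse 6 (0.107), with median-ratio scaling (0.0889) and in a fit of the TAC groups alone (0.0862). The call of Sh3kbp1 was lost in 7 of 18 fits, among them those with quantile normalization and with median-ratio scaling. The others were without KI sham mouse 1 (0.101), 2 (0.0764) or 3 (0.0725) or KI TAC mouse 5 (0.0619) or 7 (0.120). No gene of the 4 lists was called between the sham groups or in the interaction.

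**Figure D5:**
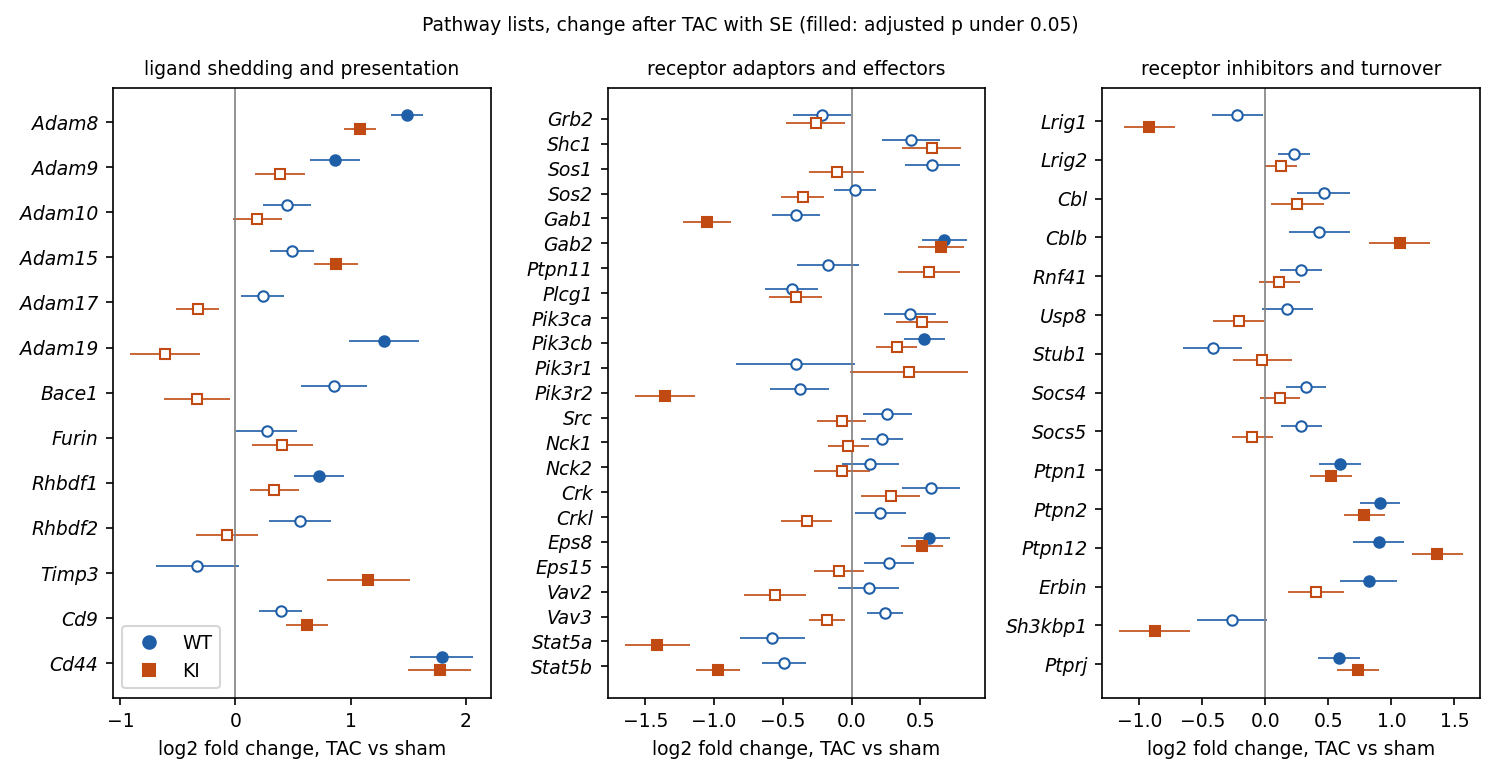
log2 fold change after TAC (x, on the log2(RPKM + 1) scale) with SE for the tested genes of 3 lists, as circles for WT and squares for KI, filled where the adjusted p was under 0.05. Cd44 and Adam8 are filled on the right for both genotypes, and Stat5a, Stat5b, Pik3r2 and Gab1 are filled on the left for KI only among the adaptors, although no difference between the genotypes' responses passed the threshold.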

How the data were processed

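Total RNA was isolated from hearts with RIN above the authors' minimum, poly(A)-selected and made into strand-specific libraries, which were sequenced as single reads. After trimming (Trimmomatic 0.39), the authors aligned reads to GRCm38 using HISAT2 2.2.1, obtained gene counts using HTSeq 0.6.1 and tested them with edgeR 3.18.1 and limma 3.32.10. The deposited values are RPKM. The authors name neither this unit nor the filter that left 13552 genes, and the unit was read from the values: multiplied by GENCODE M21 exon lengths (13546 genes matched) they summed to between 997702 and 1002226 per mouse, and 97.5% to 98.1% of low values were whole multiples of 1 read within 0.02, against at most 3.86% with a wrong step. Depth and reads were recovered from these steps. Intervals cover the spread between mice, and reads from PCR are not independent molecules.

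Samples were grouped by the genotype and treatment labels. A model of 4 group means was fitted to log2(RPKM + 1) of 12 mice using limma 3.58.1 (lmFit, and eBayes with trend) in R 4.3.3, for genes with 3 or more mice at 1 RPKM or higher, with Benjamini-Hochberg adjustment over all 11240 genes. Exact permutation tests over mice were two-sided. Alternatives were a pseudocount of 0.1, no filter, quantile normalization, median-ratio scaling, limma-voom on recovered reads, a fit of the groups compared, a replicate block for the sham mice and leaving out each mouse (12 fits). The recomputation of these for the named list genes was added after the data were seen. The text names all 6 members, at most 5 called genes per list by size of change, and the 3 genes most correlated with each member, predicted genes and pseudogenes passed over. Adam12 and Adam17 are named beside this rule, after their values were seen. Members and lists were chosen with earlier results of these data known. The model was also run on simulated data with the same spread in all groups. Such data do not cover the unequal spread of sham and TAC hearts seen for Hbegf. Promoter windows are from RefSeq, and 4 members had an entry. Python 3.11.15, numpy 2.4.6, pandas 2.3.3 and matplotlib 3.10.9 were used.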

Additional observations from a re-analysis of the deposited data

How the results depend on the processing

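Of 636 member values under 19 alternatives, 597 kept their direction and their side of the threshold, 19 fell to the other side of it, 6 came to pass it and 14 changed sign. The count of members called was 1 in WT hearts and 1 to 2 when a mouse was left out. It was 2 between the TAC groups, 1 with no filter, with quantile normalization or with median-ratio scaling, 0 in a fit of the 2 TAC groups alone (fewer samples), and 0 to 2 when a mouse was left out. The counts in KI hearts, over both genotypes, between sham groups and in the interaction did not move by more than 1.5 times. The changes of Hbegf and Errfi1 in KI hearts and of Hbegf in WT hearts were called in all 18 fits, at 3.62 to 4.76, 1.73 to 2.56 and 1.997 to 3.15. Signs changed for values within their error of 0. Erbb4 between the TAC groups was 0.032 with quantile normalization and -0.28 to 0.013 when a mouse was left out. When a mouse was left out, Errfi1 in WT hearts was -0.0075 to 0.86 and Egfr in KI hearts -0.18 to 0.23. Between sham groups the ranges were -0.0093 to 0.12 for Hbegf, -0.14 to 0.27 for Egfr, -0.032 to 0.13 for Erbb2, -0.11 to 0.24 for Erbb4 and -0.52 to 0.13 for Errfi1. The cause was not tested. Scaling moved the median change of all genes between the TAC groups from -0.12 to -0.00038 (quantile) or 0.030 (median-ratio), and that of the 5 members from -0.16 to 0.032 or -0.061. Low levels of Nrg1, Egfr and Erbb4 limit what could be seen in them. The sham groups share mouse numbers. Deviations of same-numbered mice correlated at -0.22, -0.30 and 0.44, and those of the other pairs at -0.35 to 0.43. With 3 mice per group these values cannot decide whether the numbers pair the mice. A replicate block on these 6 mice left 0 members called, as without it, and 0 genes in all against 5 (82 and 83 at an unadjusted p under 0.05, limma).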
